A study of Sus scrofa with 2 samples.

Results

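miR-205, miR-203 and the miR-200 family (miR-200a, miR-200b, miR-200c, miR-141 and miR-429) are 7 miRNAs known from epithelial tissues, and they were followed here in small RNA libraries of pig oocytes. A read counted for one of them when it was 18 to 26 nt long, held nt 2 to 18 of the conserved mature form without mismatch (the 5p arm of miR-205 and the 3p arm of the others) and began within 2 nt of that form's 5′ end. The rule used sequence alone. Of 186 conserved mature miRNAs matched in the same way, 154 had at least 1 read, and 6 of the 7 members were among them. One library came from metaphase II oocytes that had received siRNA against Dicer as germinal vesicle oocytes and then matured in vitro for 42 h (Dicer KD). The other library came from control oocytes matured in vitro for the same time. The sources used here give neither the breed of pig, nor how many oocytes were pooled, nor whether the controls received an siRNA. With 1 library per group there was no replicate check and no test between the conditions, so each ratio compares these libraries only. Intervals are 95% intervals (exact Poisson for levels, exact conditional for ratios, Clopper-Pearson for shares). Reads copied by PCR and not tagged as molecules are not independent, so these intervals hold the error of counting and nothing more.

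Dicer is the ribonuclease that cuts the loop from a hairpin precursor and leaves a short duplex, of which one strand, the mature miRNA, is usually kept and the other mostly lost. The kept strand pairs with messenger RNAs mainly through its seed, bases 2 to 8. The miR-200 family holds epithelial cells in their state by repressing the transcription factors ZEB1 and ZEB2, which miR-205 also represses. miR-203 limits the growth of skin progenitor cells by repressing p63. In mammals the miR-200 genes lie in a pair of clusters, one with miR-200b, miR-200a and miR-429 and the other with miR-200c and miR-141. In female mice miR-200b and miR-429 are needed for ovulation, through their action in the pituitary. In the RefSeq gene table of the pig assembly Sscrofa11.1, 2 of the 7 members were found by name. MIR205 lies inside a long non-coding RNA gene, LOC102159171, and the nearest gene on one side of MIR429 is TTLL10.

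The members fall into 4 seed groups, shown here by the most read sequences of each over both libraries, because the groups differ in abundance as much as in sequence. All are reads of the deposited tables, with bases 2 to 8 of the mature form in capitals. miR-205 has a seed of its own.
miR-205, form 1: tCCTTCATtccaccggagtctga
miR-205, form 2: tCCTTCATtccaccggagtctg
miR-205, form 3: tCCTTCATtccaccggagtctgt
miR-203 has a seed of its own too, and its reads began at one of 2 neighbouring bases, so that the later start moves the seed by 1 base.
miR-203, start at nt 1: gTGAAATGtttaggaccact
miR-203, start at nt 2: TGAAATGtttaggaccactagt
miR-141 and miR-200a share a seed.
miR-141: tAACACTGtctggtaaagatg
miR-141, short form: tAACACTGtctggtaaag
miR-200a: tAACACTGtctggtaacga
miR-200a, longest form: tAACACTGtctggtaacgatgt
miR-200b, miR-200c and miR-429 share a seed, 1 base from that of miR-141.
miR-200b: tAATACTGcctggtaatgatgac
miR-200c: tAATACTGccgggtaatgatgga

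The libraries were of nearly equal depth, with 11982925 reads in the Dicer KD library and 11836160 reads in the control library, so 3 reads were worth 0.250 and 0.253 RPM (reads of a miRNA scaled to all reads of its library). Conserved miRNAs took 6.63% of Dicer KD reads and 6.55% of control reads, and the 7 members took 2.26% and 2.80% of those miRNA reads. The level of the Dicer transcript is not measured by small RNA libraries. In pooled oocytes a smaller number of cells of one type and less RNA per cell cannot be told apart. Among lists of miRNAs that mark other cells, the granulosa and cumulus list, with 6 of 7 members read, summed to 608 RPM in the Dicer KD library and 473 RPM in the control library. That sum is nearly all miR-21-5p, which many cell types express, with 7177 of 7289 Dicer KD reads and 5476 of 5593 control reads, and the rest of the list summed to 9.35 RPM and 9.88 RPM. Within that rest, miR-383-5p had 27 and 47 reads, a ratio of 0.567 (0.340 to 0.930). miR-202-5p went the other way, with 32 and 6 reads and a ratio of 5.27 (2.17 to 15.4). The stromal and vascular list, with 6 of 7 members read, summed to 128 RPM and 29.0 RPM, and miR-214-3p was at 0 in both. miR-143-3p held 1411 of its 1531 Dicer KD reads and 286 of its 343 control reads. The blood list summed to 47.1 RPM and 35.5 RPM, with miR-144-3p and miR-223-3p at 0. Of its 564 and 420 reads miR-486-5p held 559 and 413, and miR-451a, a marker of red blood cells, had 5 and 7. The part of such cells in the levels below was not tested.

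One miRNA made up nearly all of the group. miR-205 held 99.1% of the members' reads in the Dicer KD library and 99.3% in the control library. It was the fourth most abundant of the 186 conserved miRNAs in each, with 1484 RPM (1463 to 1506) in the Dicer KD library and 1819.85 RPM (1796 to 1844) in the control library. In the order of reads it stood between miR-148a-3p, with 2954 and 2840.45 RPM, and miR-92a-3p, with 952 and 1043 RPM. miR-141 followed far below, at 8.18 RPM (6.64 to 9.97) in the Dicer KD library and 10.6 RPM (8.79 to 12.6) in the control library. Over both libraries together the order then ran through miR-203, miR-200c, miR-200b and miR-200a. In the control library miR-203, with 6 reads, stood below miR-200c, with 7. miR-200c, miR-200b and miR-200a had overlapping intervals within each library and could not be ranked at this depth. In the control library the interval of miR-203 overlapped theirs as well. miR-429 had 0 reads in both libraries, for which a limit of 3 reads was taken in place of a Poisson interval, or 0.250 RPM in the Dicer KD library and 0.253 RPM in the control library. A search with nt 2 to 16 of miR-429, a stretch common to more of its mammalian forms, also gave 0 reads in each.

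**Figure D1:**
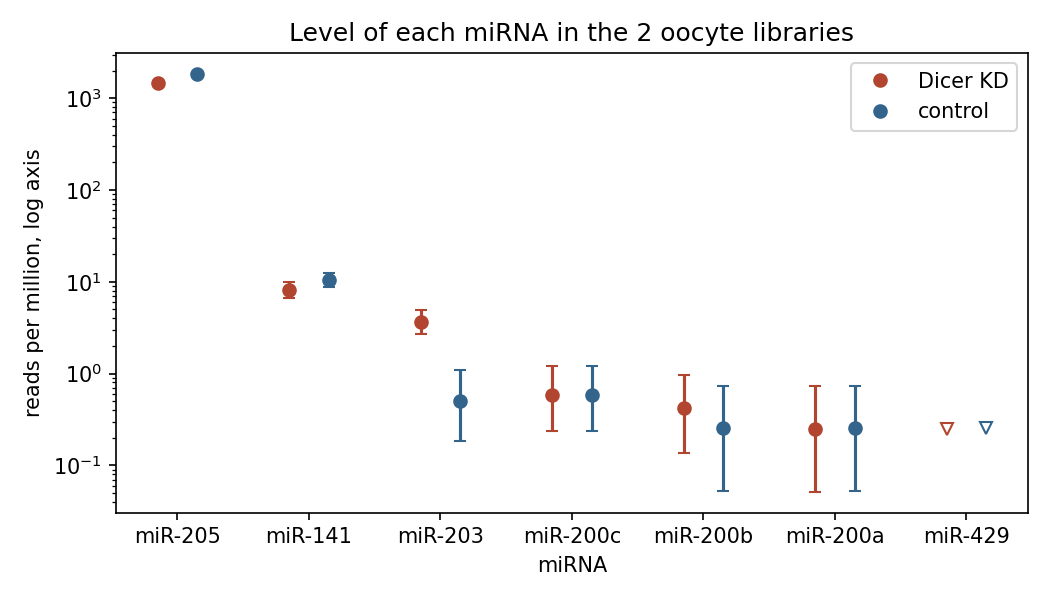
Level of each miRNA in RPM on a log axis, with the Dicer KD library left and the control library right. Bars are exact Poisson 95% intervals, and open triangles mark the limit of 3 reads for miR-429, which had 0 reads. miR-205 stands more than 2 decades above every other member in both libraries.

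miR-205 was lower in the Dicer KD library. It had 17786 reads there and 21540 reads in the control library, a ratio of 0.816 (0.800 to 0.832) and a log2 ratio of -0.29. Conserved miRNAs as a whole leaned the other way: the median log2 ratio of the 75 with at least 100 reads was 0.29, and 12 of them had a lower ratio than miR-205. miR-141, the other member with at least 100 reads, had 98 and 125 reads and a ratio of 0.774 (0.588 to 1.02), an interval that includes 1. When scaled to miRNA reads without the 2 most abundant miRNAs, its interval was 0.506 to 0.874, under 1. Neither of these 2 members reached a 2-fold difference in either direction. Of all 75 miRNAs, 24% were at least 2-fold higher and 1.33% at least 2-fold lower in the Dicer KD library. For the 10652 distinct sequences of 18 to 26 nt that had 100 reads or more, these shares were 5.03% and 6.1%. The miRNAs of at least 1000 reads whose log2 ratio over these 2 libraries was nearest to that of miR-205 were miR-16-5p, with a ratio of 0.866 (0.792 to 0.947), miR-182-5p, with 0.882 (0.877 to 0.887), and miR-92a-3p, with 0.913 (0.890 to 0.936).

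**Figure D2:**
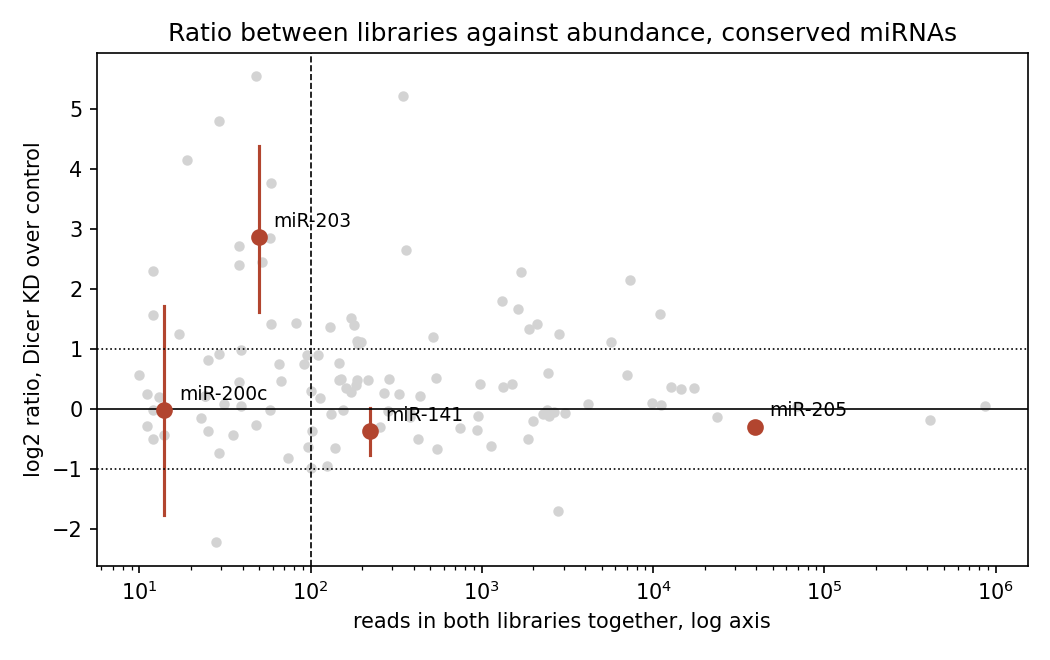
Log2 ratio of Dicer KD over control against reads in both libraries together (log axis), for conserved miRNAs with at least 10 reads and with reads in each library. Members are in red with exact conditional 95% intervals and other miRNAs in grey, the dotted lines mark 2-fold and the dashed line 100 reads. miR-205 lies at -0.29 with an interval smaller than its point, and miR-203 at 2.86 with a wide one.

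The miR-200 family was close to its detection limit apart from miR-141. Its 5 members summed to 113 reads in the Dicer KD library and 138 reads in the control library, a ratio of 0.809 (0.625 to 1.04), and of 0.695 (0.537 to 0.898) when scaled to miRNA reads without the 2 most abundant. miR-141 held 86.7% of these reads in the Dicer KD library and 90.6% in the control library. miR-205 outnumbered the whole family 157-fold in the Dicer KD library and 156-fold in the control library. The cluster pair of miR-200c and miR-141 had 105 and 132 reads, while the trio of miR-200a, miR-200b and miR-429 had 8 and 6. miR-200c had 7 reads in each library, with a ratio of 0.988 (0.296 to 3.30). miR-200b had 5 Dicer KD reads and 3 control reads, a ratio of 1.65 (0.320 to 10.6). miR-200a had 3 reads in each, a ratio of 0.988 (0.132 to 7.37). No difference between the libraries was detectable at this depth for miR-200a, miR-200b or miR-200c. By seed, miR-141 and miR-200a together had 101 Dicer KD reads and 128 control reads, and the seed of miR-200b and miR-200c had 12 and 10.

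Few reads separate miR-200a from miR-141. Of the 3 forms counted as miR-200a, those of 19 and 21 nt differed by 1 base from a miR-141 read of the same length, and they held 2 of the 3 Dicer KD reads and 2 of the 3 control reads. The form of 22 nt, with 1 read in each library, differed from every miR-141 read of its length by at least 2 bases. Counted from 1 at the 5′ end of miR-141, the difference at the discriminating base is A17C. Whether the short miR-200a forms are misread miR-141 was not tested.

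miR-203 was higher in the Dicer KD library, from few reads. It had 44 reads there and 6 in the control library, which is 3.67 RPM (2.67 to 4.93) and 0.507 RPM (0.186 to 1.10), a ratio of 7.24 (3.08 to 20.8). Its total of 50 reads lies under the 100 reads used above. Among the 45 conserved miRNAs with 10 to 99 reads, a ratio of 2 or more was found for 33.3% and one of 0.5 or less for 2.22%, and 5 others had a ratio at least as large as that of miR-203. An excess of at least 2-fold was therefore common at this abundance, as it was for 24% of the 75 miRNAs with at least 100 reads. These shares are for 2-fold and not for a ratio as large as 7.24. The stromal and vascular list was also higher in the Dicer KD library, with a ratio of 4.41 (3.92 to 4.97) that rests mainly on miR-143-3p, at 4.87 (4.29 to 5.55), while miR-199a-3p was at 1.70 (1.20 to 2.43), and its part in the miR-203 reads was not tested.

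miR-203 reads began at one of 2 neighbouring bases. In the Dicer KD library 27 of 44 reads began at nt 1 and 17 at nt 2, a share of 38.6% for the later start (24.4 to 54.5%). In the control library 5 of 6 began at nt 1 and 1 at nt 2. The 20-nt form that starts at nt 1, shown above, had 13 Dicer KD reads and 4 control reads. The 22-nt form that starts at nt 2 had 10 Dicer KD reads and 0 control reads. The later start shifts the seed from TGAAATG to GAAATGT.

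miR-205 began almost without exception at its mature 5′ end. This start was found in 99.994% of its Dicer KD reads and 99.97% of its control reads, and 1 and 6 reads began 1 base later. Over the 33 miRNAs of at least 1000 reads, the median share of reads that began at nt 1 was 99.7% in the Dicer KD library and 99.9% in the control library, and miR-205 ranked 6 and 8 among them. miR-141 began at nt 1 in all 98 Dicer KD reads and all 125 control reads.

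The 3′ end of miR-205 was spread over several bases. In all, 115 distinct sequences were counted for it in the 2 libraries together. Reads of 23 nt made up 49.7% (48.9 to 50.4%) in the Dicer KD library and 52.0% (51.3 to 52.7%) in the control library. Reads of 22 nt made up 27.6% (26.9 to 28.2%) and 25.3% (24.7 to 25.9%). Reads of 24 nt made up 10.5% and 9.92%, and those of 21 nt 8.53% and 9.29%. The Dicer KD library thus held relatively more of the 22-nt and less of the 23-nt length, with intervals that did not overlap for either, and the difference was about 2 percentage points in each case.

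**Figure D3:**
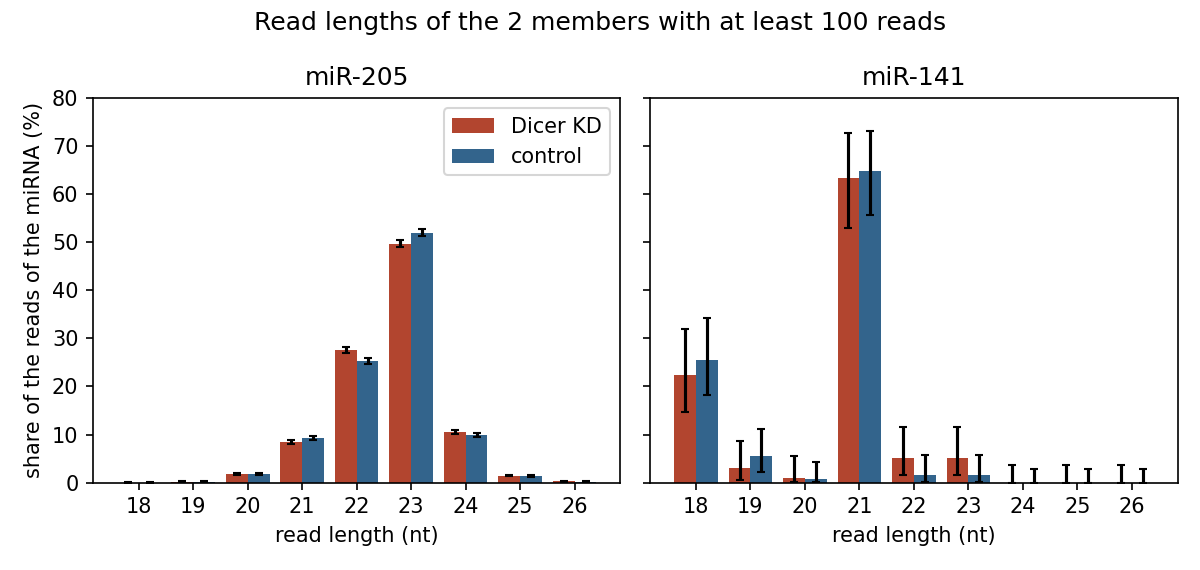
Share of reads by length for miR-205 and miR-141, with the Dicer KD library left and the control library right in each pair, and exact binomial 95% intervals. miR-205 peaks at 23 nt, with 49.7% and 52.0%, while miR-141 peaks at 21 nt. miR-141 also has a larger share at 18 nt, the shortest length deposited, than at 19 or 20 nt.

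Most of the longer miR-205 reads ended in A. Form 2 above, of 22 nt, is the start of form 1, which carries an A after it, and of form 3, which carries a T. Of the 15781 Dicer KD reads that held all of form 2, 50.8% (50.0 to 51.6%) had A next, 18.1% (17.5 to 18.8%) had T next and 30.7% (30.0 to 31.5%) ended there. Of the 18971 control reads, the shares were 53.5% (52.8 to 54.2%), 17.8% (17.2 to 18.3%) and 28.5% (27.8 to 29.1%). C and G followed in 0.0507% and 0.266% of the Dicer KD reads and in 0.0474% and 0.200% of the control reads. Among reads longer than 22 nt, those with A alone after form 2 were 68.7% in the Dicer KD library and 70.9% in the control library, and those with T and then A alone were 7.52% and 6.54%. No precursor sequence was used, so bases copied from the gene and bases added later cannot be told apart here.

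The forms of miR-205 differed in how far they fell short of the control library. Form 1, ending in A, had 6826 Dicer KD reads and 8766 control reads, a ratio of 0.769 (0.745 to 0.794). Form 2 had 4851 and 5401 reads, a ratio of 0.887 (0.853 to 0.922), and the intervals of these forms did not overlap. Form 3, ending in T, had 1906 and 2304 reads and lay between them, with 0.817 (0.769 to 0.869). The fourth form, of 21 nt, had the lowest ratio of the 9 most read, 0.749 (0.700 to 0.801), with 1498 and 1976 reads. The seventh, of 24 nt and ending in A and C, had 383 reads in each library, a ratio of 0.988 (0.855 to 1.14). The form of 25 nt that ends in T and a pair of A bases had 158 and 154 reads, a ratio of 1.01 (0.807 to 1.27). All ratios of the 9 forms were under 1 but this last one.

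**Figure D4:**
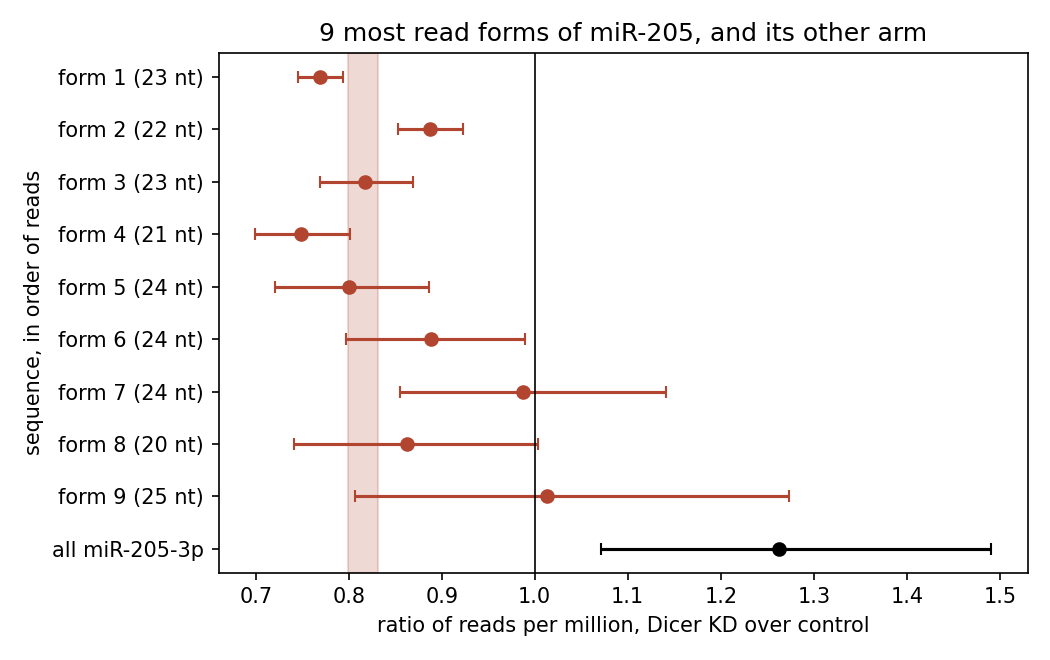
Ratio of RPM, Dicer KD over control, for the 9 most read sequences of miR-205 in order of reads (red) and for all reads of miR-205-3p (black), with exact conditional 95% intervals. The shaded band is the interval of miR-205 as a whole, 0.800 to 0.832. The interval of miR-205-3p, 1.07 to 1.49, lies above 1 when scaled to all reads, and was 0.921 to 1.28 when scaled to miRNA reads without the 2 most abundant.

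The opposite arm of the miR-205 hairpin had a ratio above 1. miR-205-3p, which the counting rule left out, is shown by its most read forms, because they show a start at one of 2 neighbouring bases and a shared end. Capitals mark bases 2 to 8 in the 21-nt form only, and the 20-nt form begins with the same bases, left unmarked.
miR-205-3p, 21 nt: gATTTCAGtggagtgaagctc
miR-205-3p, 20 nt: atttcagtggagtgaagctc
By the same match rule miR-205-3p had 335 reads in the Dicer KD library and 262 in the control library, or 28.0 RPM and 22.1 RPM, a ratio of 1.26 (1.07 to 1.49). Its log2 ratio, 0.34, was close to the median of 0.29 of the 75 miRNAs, and when scaled to miRNA reads without the 2 most abundant its ratio was 1.09 (0.921 to 1.28), an interval that includes 1. The 21-nt form had 215 and 174 reads, a ratio of 1.22 (0.995 to 1.499), and the 20-nt form 48 and 33, a ratio of 1.44 (0.903 to 2.31). As a share of the reads of both arms miR-205-3p was 1.85% (1.66 to 2.06%) in the Dicer KD library and 1.20% (1.06 to 1.36%) in the control library. There were 53.1 reads of the 5p arm for each read of the 3p arm in the Dicer KD library, against 82.2 in the control library, so the 3p arm relative to the 5p arm was 1.55-fold higher (1.31 to 1.83) in the Dicer KD library. This quotient does not depend on the scaling of the libraries. Of the opposite arms of miR-203, miR-141, miR-200a and miR-200c no read was found in either library, and miR-200b-5p had 0 Dicer KD reads and 2 control reads.

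miR-141 ended short. Its 21-nt form, shown above, had 59 Dicer KD reads and 78 control reads, which is 60.2% (Clopper-Pearson interval 49.8 to 70.0%) and 62.4% (53.3 to 70.9%) of its reads. The 22-nt form, 1 base longer, had 5 and 2 reads. The 18-nt form, which lacks 3 bases of the 21-nt one, had 22 and 32 reads, or 22.4% (14.6 to 32.0%) and 25.6% (18.2 to 34.2%). Over the 75 miRNAs with at least 100 reads the median share of 18-nt reads was 0% in each library, and miR-141 ranked 2 in the Dicer KD library and 1 in the control library. miR-205 had 3 and 2 such reads, a share of 0.0169% and 0.00929%. The 18-nt form of miR-141 had a ratio of 0.679 (0.376 to 1.21), an interval that includes 1.

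Departures from the miR-205 sequence were rare, with a somewhat higher share in the Dicer KD library. The intervals of the shares overlapped slightly, which does not show the shares to be equal. Reads with 1 mismatch in the first 18 nt numbered 244 beside 17778 exact ones in the Dicer KD library, a share of 1.35% (1.19 to 1.53%), and 233 beside 21534 in the control library, 1.07% (0.938 to 1.22%). With positions counted from 1 at the 5′ end, the most frequent were C13T, with 21 Dicer KD reads and 31 control reads, C11T, with 21 and 30, and A17G, with 12 and 27. At position 18, G18T had 18 and 16 reads, G18C 12 and 3 and G18A 11 and 1. No antisense read of miR-205 was found in either library.

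Other miRNAs known from epithelia differed among themselves. Of 7 such entries, which count miR-192-5p with miR-215-5p because they share the matched stretch, all were read and 6 had at least 100 reads. Of these 6, 1 was at least 2-fold higher in the Dicer KD library and 0 at least 2-fold lower. Of all 75 miRNAs, 24% were higher and 1.33% lower by this rule. The median log2 ratio of the 6 was -0.15, against 0.29 for the 75. miR-182-5p, the most abundant of them, was at 16341 RPM in the Dicer KD library and 18526 RPM in the control library. The cluster partners of miR-182-5p were lower too, miR-183-5p with a ratio of 0.712 (0.648 to 0.781) and miR-96-5p with 0.635 (0.443 to 0.904). miR-31-5p, with 461 and 494 reads, had a ratio of 0.922 (0.810 to 1.05), and miR-375-3p, with 56 and 45 reads, one of 1.23 (0.815 to 1.86). The entry of miR-192-5p and miR-215-5p was higher, with 363 and 156 reads and a ratio of 2.30 (1.90 to 2.79).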

How the data were processed

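Per the labels' protocols, adapters were ligated to small RNAs from total oocyte RNA, and the amplified cDNA was read on an Illumina machine. For each library the authors deposited a table of each distinct sequence of 18 to 44 nt with its length in nt and its raw read count, without normalization. The submitters' processing notes name Bowtie2, while its version, the build of the genome and how reads were trimmed are not given in the sources used here. No genome and no table of pig miRNAs was used: nt 2 to 18 of 193 conserved mature miRNAs were typed in from general knowledge of vertebrate miRNAs, and 186 entries remained once those with the same stretch were counted together. The members and lists were chosen with earlier results of these data known. A start 2 nt inside the mature end cannot hold nt 2, so starts ran from 2 nt before to 1 nt after it.

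RPM values were computed from all reads of a library. A miRNA was past 2-fold when it had 100 reads or more over the 2 libraries and its ratio was 2 or above, or 0.5 or below. A count of 0 was given a limit of 3 reads. For the background, a count of 0 in 1 library was set to 0.5 reads in the sequences and low-count miRNAs. The text names all 7 members, their most read sequences, the miRNAs next to miR-205 in reads and in log2 ratio (at least 1000 reads), and the fixed marker lists. Other low-count neighbours in reads are not listed. Ratios and intervals were run on simulated independent Poisson counts with known changes. Such counts hold no PCR copies and no variation between libraries, so the run checked the calculation only. Python 3.11.15, numpy 2.4.6, scipy 1.17.1 and matplotlib 3.10.9 were used.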

Additional observations from a re-analysis of the deposited data

Results flagged for a closer look

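miR-205-3p, the arm of the miR-205 hairpin that the counting rule left out, had more reads in the Dicer KD library than in the control library, 335 and 262, with a ratio of 1.26, or 1.09 (0.921 to 1.28) when scaled to miRNA reads without the 2 most abundant. It was singled out as a signal outside the main measurement that stood above the control library. Its log2 ratio, 0.34, was close to the median of 0.29 of the 75 miRNAs with at least 100 reads. miR-205 itself had a ratio of 0.816. The list of miRNAs that mark stromal and vascular cells was also higher in the Dicer KD library, mainly through miR-143-3p, and their part in the miR-205-3p reads was not tested.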

How the results depend on the processing

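The ratio of miR-205 stayed under 1 in all 8 alternatives run, from 0.701 to 0.842, and those of miR-141 (0.666 to 0.855) and the miR-200 family (0.695 to 0.892) did too, while that of miR-203 ran from 5.33 to 10.4. miR-205 was at 0.842 when scaled to reads of 18 to 26 nt and at 0.701 when scaled to miRNA reads without miR-10b-5p and miR-182-5p. That last scaling moved every log2 ratio by -0.22 and the median of the 75 miRNAs to 0.07. A change of scaling moves all log2 ratios alike, so it could not change the place of miR-205 below this median and does not check it. Scaling without these 2 miRNAs also left 3 miRNAs at least 2-fold lower in place of 1, and 13 higher in place of 18. With a minimum of 10 reads, 33 of 120 miRNAs (27.5%) were at least 2-fold higher and 2 (1.67%) lower, and with 1000 reads 9 of 33 (27.3%) were higher. Intervals under 1 were found for miR-141 and the family when scaled without those 2 miRNAs (0.506 to 0.874 and 0.537 to 0.898) and without sequences of 1 read (0.573 to 0.997 and 0.588 to 0.998). The ratio of miR-205-3p, whose scalings were chosen after seeing the data, ran from 1.09 (0.921 to 1.28) when scaled to miRNA reads without miR-10b-5p and miR-182-5p to 1.30 (1.11 to 1.54) for reads of 18 to 26 nt. Requiring nt 2 to 20 removed the 18-nt and 19-nt reads of miR-141, and those with another base at nt 19 or 20. This left 71 Dicer KD reads and 82 control reads of miR-141, of which the most read form held 83.1% and 95.1%. The count of members past 2-fold stayed at 0 in each alternative run for it, a limit of 1.5-fold included, but only miR-205 and miR-141 had enough reads to enter it. The minimum of reads was varied for the miRNAs as a whole and not for this count. miR-203, whose ratio was above 2 in every alternative, was left out of the count by that minimum, so the 0 says nothing about miR-203. Scaling to tRNA, rRNA, snRNA and Y RNA reads and counting only whole mature sequences were not run, for want of reference sequences. Depth limits miR-200a, miR-200b, miR-200c and miR-203, which rest on 50 reads or fewer in all. No paired analysis was possible because there was 1 library per group.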

Other observations

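Some reads held the miR-205 stretch but began 5 to 14 bases before its mature 5′ end in the Dicer KD library and 5 to 12 bases before it in the control library, outside the counting rule. They numbered 64 in each library, a ratio of 0.988 (0.687 to 1.42), with 26 and 28 distinct sequences. Their lengths were 26 to 36 nt in the Dicer KD library and 26 to 34 nt in the control library. In 64 of the Dicer KD reads and 60 of the control reads the 4 bases just before the miR-205 stretch were GTGG. Where these bases come from was not tested. A further 18 Dicer KD reads and 33 control reads began within 2 nt of the mature end and were longer than 26 nt.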
